A study of Sorghum bicolor with 177 samples.

Results

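The peptide transporter (PTR) family of sorghum was described across roots and leaves of plants given too little or too much iron or zinc. Members were the genes whose rice description in the deposited annotation contains the words "peptide transporter PTR". The rule used this description and no measured value. It took 66 of the 34129 genes of the table, after 1 of the 67 genes with that description was set aside.

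Proteins of this family, now called NPF (the NRT1/PTR family), move substrates across membranes together with protons. In plants the family carries nitrate and small peptides, and single members also carry hormones such as abscisic acid and gibberellin, or defence compounds. In roots its members take up nitrate and load it into the xylem, and in leaves they store and redistribute nitrate and the nitrogen released from protein. Each member is named here after its closest Arabidopsis gene in the deposited annotation (PTR2-like, NRT1.1-like), and every role given is one known from Arabidopsis. Where the annotation gave no symbol, the NPF name of that Arabidopsis gene came from general knowledge, as did every clade. The members fell into 8 Arabidopsis clades, with 19 members in NPF8 (peptide transporters), 13 in NPF4, 8 in NPF5, 7 in NPF3, 6 in NPF6, 5 in NPF7, 4 in NPF2 and 4 in NPF1.

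The plants were Sorghum bicolor BTx623, the sorghum reference line, raised in a hydroponic solution that held both nitrate and ammonium. Control plants received 1 µM ZnSO4 and 50 µM NaFe(III)EDTA. Zinc limitation (ZnLim) had 0 µM ZnSO4 and zinc excess (ZnEx) 100 µM, both with the control iron. Iron limitation (FeLim) had 0 µM NaFe(III)EDTA and iron excess (FeEx) 1 mM, both with the control zinc. Every group was the same inbred line, with no mutant or transgene, and all 4 treatments were set against the same Control columns. Roots were sampled at 1 h and at 2, 4, 7, 14 and 21 d, leaves at all of these but 1 h, and untreated Control plants of both tissues at 0 h.

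Poly-A selected RNA-seq of 177 libraries (94 root, 83 leaf) lay behind 57 columns, 31 of root and 26 of leaf. Each column was the authors' mean over 2 to 6 libraries in TPM, a transcript level scaled for gene length and library depth. The spread between plants and the depth of each library are therefore not known here, and the sampling times served as replicates. A p-value sets a difference against the spread over times, not over plants. In the treatment fits that spread was shared by Control and all treatments, so it is not that of a single treatment. The library names carry a number before the tissue letter, which was read here as that of the plant. All 15 such numbers of the root libraries of 1 h came back in root libraries of 21 d. By these numbers, roots of 17 plants and leaves of 3 plants were sampled at 2 times. The times are therefore not taken as fully independent replicates.

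The labelled tissues were checked by marker genes. The 36 leaf markers (genes of photosynthesis) summed to between 83877 and 322757 TPM in the leaf columns and to between 202 and 594 TPM in the root columns. The 10 root markers summed to between 179 and 594 TPM in roots and to between 27.9 and 61.6 TPM in leaves. Root Control 2 d, root Control 4 d and root FeLim 2 d had the highest leaf marker sums of the root columns, at 468, 496 and 594 TPM. In the FeEx root column of 7 d, 10 genes took 35.5% of all TPM, against at most 7.74% in the other root columns.

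Of the 66 members, 34 averaged at least 1 TPM over the root columns and 37 did so over the leaf columns, and these were tested. Both tissues shared 28 of them, 6 were tested in root only and 9 in leaf only. The other 23 members did not pass in either tissue, their highest value in any column was 2.84 TPM, and 3 of them were listed at 0 in all 57 columns. Together the members made up 562 to 976 TPM in the root columns and 422 to 976 TPM in the leaf columns.

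In roots the family was led by a few genes. NPF2.11-like Sobic.001G133900, whose Arabidopsis counterpart GTR2 carries glucosinolates, averaged 164 TPM and held 21.2% of the root level of the family, with a lowest root column of 45.7, a median of 143 and a highest of 370 TPM. PTR2-like Sobic.001G282000, related to a carrier of di- and tripeptides, averaged 81.7 TPM, with columns from 28.8 through a median of 81.3 to 150 TPM. NRT1.1-like Sobic.007G044300, related to the dual-affinity nitrate transporter and nitrate sensor, averaged 60.6 TPM, with columns from 21.8 through 54.1 to 126 TPM. Next came 3 genes at almost the same mean level. NPF5.10-like Sobic.009G148900 averaged 53.2 TPM (28.2 to 74.7), PTR2-like Sobic.001G282100 averaged 53.0 TPM (39.3 to 77.2) and PTR2-like Sobic.002G367700 averaged 51.0 TPM (27.1 to 76.9). The ranges of these 3 overlapped almost wholly, so their order is not separated by the spread between columns. The 6 genes held 59.9% of the root level of the family.

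Leaves had other leading members and a flatter order. NPF5.6-like Sobic.001G032000 averaged 59.4 TPM, with columns from 26.4 through a median of 56.9 to 104 TPM. PTR1-like Sobic.003G392700, related to a plasma membrane carrier of dipeptides, averaged 49.6 TPM (29.5 to 74.4). NPF6.4-like Sobic.004G193000, whose counterpart is NRT1.3, averaged 48.9 TPM (14.7 to 100.4). These leading ranges overlapped. NPF3.1-like Sobic.010G109200, related to a carrier of gibberellin and nitrite, averaged 33.8 TPM (13.2 to 105), PTR2-like Sobic.002G367700 31.2 TPM (6.02 to 188), and NPF3.1-like Sobic.009G136900 30.6 TPM (21.7 to 45.0). The 6 leading leaf genes held 42.5% of the leaf level of the family, and Sobic.002G367700 was the only gene among the 6 highest of both tissues. Its place among the 6 in leaf rests on the Control 0 h column of 188 TPM. Its median leaf column was 25.8 TPM, under the 27.1 TPM of NPF8.5-like Sobic.001G276300, which is not among the 6.

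**Figure D1:**
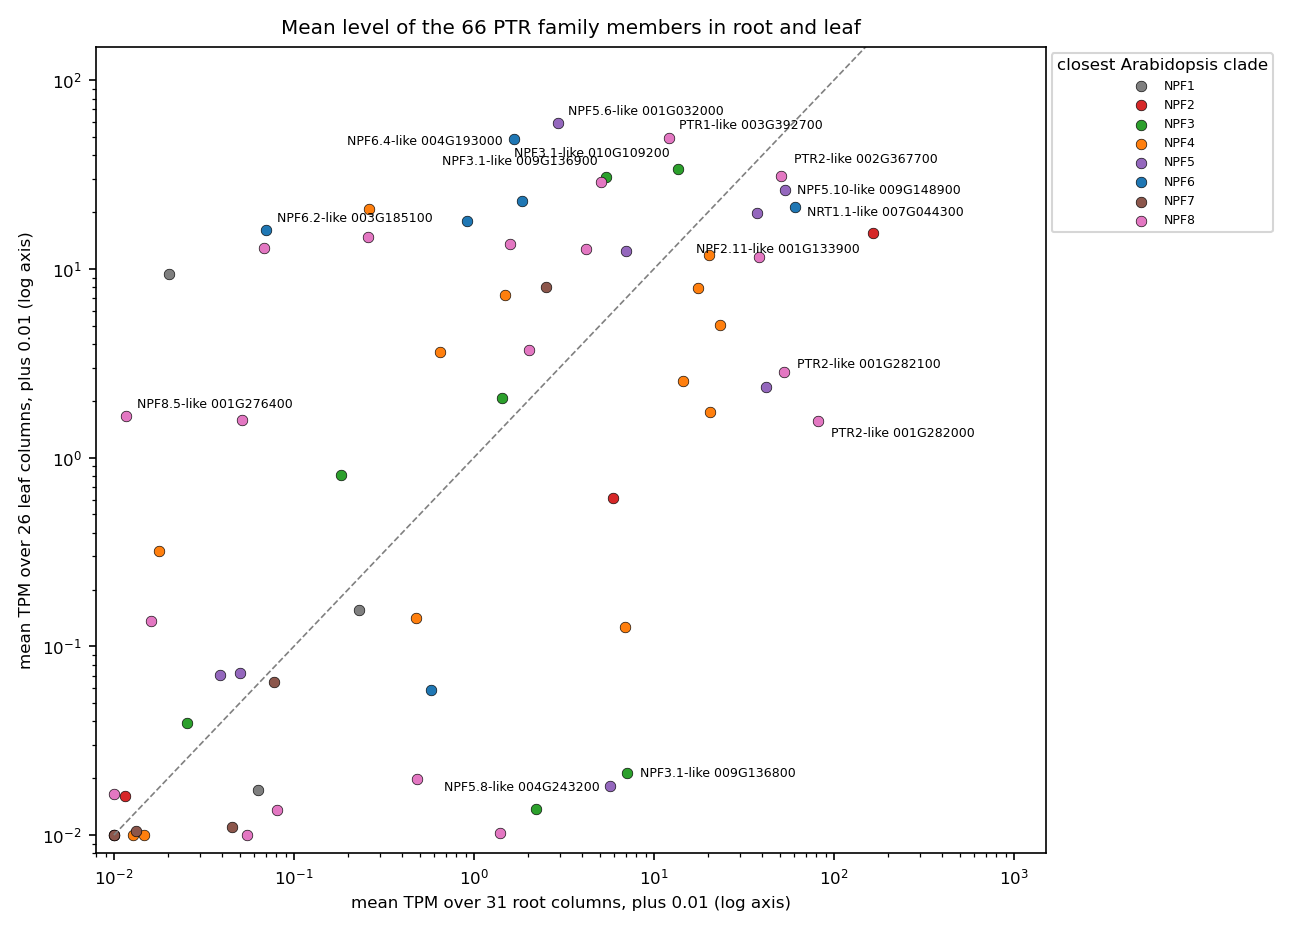
Mean level of each of the 66 members over the 31 root columns (horizontal) and the 26 leaf columns (vertical), both in TPM plus 0.01 on log axes, coloured by Arabidopsis clade; the dashed line marks equal levels and labels leave out the prefix Sobic. NPF2.11-like Sobic.001G133900 lies farthest right at 164 TPM, and NPF5.6-like Sobic.001G032000 highest at 59.4 TPM.

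Root and leaf were compared first, over the 6 times at which both had a Control column. Genes entered with a mean of at least 1 TPM over the Control columns of either tissue. A gene low in root could thus enter through leaf alone, and the reverse. Calls of such genes do not count as independent of that filter. Of the 41 members tested, 18 were higher in root and 19 were higher in leaf (limma across all genes, Benjamini-Hochberg adjusted p under 0.05). Among all genes tested, 65.4% were higher in root and 17.6% higher in leaf, and the median difference was 1.09 on the log2(TPM + 1) scale, against 0.10 for the members. All TPM of a column add up to 1000000, and in leaf columns the photosynthesis markers alone took the sums given above. Relative to the median of all genes, 11 members were higher in root and 21 higher in leaf, against 31.5% and 33.0% of all genes. A difference here can come from fewer cells of a type or from less RNA per cell, which bulk samples cannot tell apart.

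The largest root excess belonged to a pair of peptide transporter genes with adjoining identifiers. PTR2-like Sobic.001G282000 ranged from 43.8 through a median of 81.4 to 129 TPM in Control roots and from 0.468 through 1.45 to 4.23 TPM in Control leaves, a difference of 4.94 ± 0.24 (log2, SE, 6 times, limma adjusted p = 2.25e-07). PTR2-like Sobic.001G282100 ranged from 47.0 through 53.8 to 60.4 TPM in roots and from 1.12 through 1.61 to 3.29 TPM in leaves (4.28 ± 0.21, limma adjusted p = 2.54e-07). For both genes the lowest root column lay far above the highest leaf column. PTR3-like Sobic.001G223100, related to a peptide transporter induced by wounding, ranged from 22.7 through 43.3 to 101 TPM in roots and from 0.770 through 2.33 to 3.04 TPM in leaves (3.91 ± 0.38, limma adjusted p = 1.5e-05). NPF2.11-like Sobic.001G133900 ranged from 52.4 through 167 to 193 TPM in roots and from 5.17 through 13.5 to 32.5 TPM in leaves (3.18 ± 0.34, limma adjusted p = 2.83e-05). NPF4.3-like Sobic.006G130501 ranged from 6.72 through 27.1 to 56.7 TPM in roots and from 1.17 through 1.64 to 3.30 TPM in leaves (3.04 ± 0.49, limma adjusted p = 0.000349). None of these 5 genes had a leaf column within its root range. As they were picked for the size of their difference, this adds no evidence.

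The largest leaf excess was that of NPF4.3-like Sobic.008G081200, which ranged from 12.9 through 23.6 to 37 TPM in Control leaves and from 0.088 through 0.228 to 0.729 TPM in Control roots (fell by 4.24 ± 0.25 from leaf to root, limma adjusted p = 8.38e-07). NPF5.6-like Sobic.001G032000 ranged from 40.6 through 58.1 to 102 TPM in leaves and from 0.126 through 3.0 to 7.53 TPM in roots (fell by 4.20 ± 0.43, limma adjusted p = 2.16e-05). NPF6.4-like Sobic.004G193000 ranged from 14.7 through 50.7 to 79.0 TPM in leaves and from 0.489 through 1.47 to 4.44 TPM in roots (fell by 4.18 ± 0.31, limma adjusted p = 2.85e-06). NPF8.5-like Sobic.006G201100, related to the peptide transporter PTR6, was at 5.74 to 22 TPM in leaves and at most 0.663 TPM in roots (fell by 3.52 ± 0.29, limma adjusted p = 5.8e-06). NPF6.2-like Sobic.003G185100, whose counterpart NRT1.4 stores nitrate in the petiole, was at 6.96 to 28.1 TPM in leaves and at most 1.46 TPM in roots (fell by 3.49 ± 0.27, limma adjusted p = 4.13e-06). Root and leaf columns did not overlap for any of these 5 genes. They were picked for the size of their difference, so this adds no evidence. The share of all genes without overlap was not counted. Sobic.008G081200, Sobic.006G201100 and Sobic.003G185100 averaged 0.292, 0.256 and 0.257 TPM in Control roots. These passed the filter through leaf alone, so their calls are not independent of it.

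Clade counts are from the fit not taken relative to the median, where 65.4% of all genes were higher in root and 17.6% in leaf. By clade, both tested NPF2 members were higher in root, and 4 of the 5 tested NPF6 members were higher in leaf. The exception in NPF6 was NRT1.1-like Sobic.007G044300, at 21.8 to 87.1 TPM in Control roots and 10.0 to 33.7 TPM in Control leaves (1.55 ± 0.24, limma adjusted p = 0.000291). NPF8 split into 4 members higher in root and 7 higher in leaf. NPF4 split into 5 and 3, and NPF5 into 4 and 1. Some of these root calls lay under the median difference of all genes, 1.09. They were NRT1:2-like Sobic.010G175900 in NPF4 (0.67) and, in NPF5, NPF5.10-like Sobic.009G148900 (0.76) and PTR3-like Sobic.001G511000 (0.83). Clades were not counted relative to that median. The clade counts also hold members that passed the filter through 1 tissue alone, whose calls are not independent of it. Among them were NAXT1-like Sobic.009G099000 in NPF2, at a mean of 0.434 TPM in Control leaves, and 2 NPF6 genes. These were NPF6.2-like Sobic.003G185100 and NPF6.1-like Sobic.009G049900, at 0.257 and 0.780 TPM in Control roots. The only tested NPF7 member, NRT1.5-like Sobic.004G276200, related to the transporter that loads nitrate into the root xylem, was higher in leaf, at 2.02 to 11.5 TPM against 0.170 to 4.16 TPM in root (fell by 1.96 ± 0.32, limma adjusted p = 0.000374).

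Genes whose identifiers follow each other were alike in their leading tissue in some runs and unlike in others. Sorghum identifiers number genes along a chromosome, and 26 members stood in 7 runs with steps of at most 1000 in that number. Both PTR2-like genes of the pair with the largest root excess, given above, averaged more in root, and all 3 NPF4.3-like genes from Sobic.008G081200 to Sobic.008G081500 averaged more in leaf. Sobic.008G081500 averaged only 0.310 TPM in leaf and was not tested. In the run of 5 NPF3.1-like genes on chromosome 9, Sobic.009G136800 averaged 7.11 TPM in root and never passed 0.153 TPM in leaf, while its neighbour Sobic.009G136900 averaged 5.44 TPM in root and 30.6 TPM in leaf. The longest run, of 10 peptide transporter genes on chromosome 1 from Sobic.001G275500 to Sobic.001G276800, held 7 genes with a mean leaf level above the root level and 3 with the reverse. Of these, Sobic.001G275800, Sobic.001G276000, Sobic.001G276600 and Sobic.001G276700 averaged under 1 TPM in both tissues and were not tested, so their leading tissue is not settled. In it, NPF8.5-like Sobic.001G276300 averaged 28.8 TPM in leaf and 5.07 TPM in root, whereas PTR2-like Sobic.001G276800 averaged 1.39 TPM in root and never passed 0.0048 TPM in leaf. Copies of such similarity can share reads, and how the authors' counting split them is not given in the sources used here, so levels within a run are uncertain.

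Iron limitation of the leaf was the only treatment under which members passed the test. Of 37 members, 5 rose and 2 fell against Control over the 5 times, where 6.79% of all genes rose and 1.87% fell (limma, Benjamini-Hochberg). Those that rose were 2 NPF3.1-like genes of different chromosomes, a PTR2-like gene, an NPF8.5-like gene and an NRT1:2-like gene. NPF6.2-like Sobic.003G185100 and PTR1-like Sobic.003G076200 fell. The median difference was -0.06 over the members and 0.24 over all genes.

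NPF3.1-like Sobic.010G109200 was the most abundant of those that rose. Its leaf level under FeLim was 25.2, 37.9, 105, 81.3 and 68.3 TPM at 2, 4, 7, 14 and 21 d, against 24.4, 28.0, 38.1, 22.7 and 18.4 TPM in Control. The columns were close at 2 d and apart from 7 d on, with every late FeLim column above every Control column (1.11 ± 0.27, limma adjusted p = 0.0289, higher at 5 of 5 times). NPF3.1-like Sobic.009G136700 was at 0.0583, 1.39, 3.78, 7.14 and 14.9 TPM under FeLim and at 0.0873, 0.590, 0.468, 0.518 and 1.70 TPM in Control (1.45 ± 0.43, limma adjusted p = 0.0453). It was higher at 4 of 5 times, and FeLim 4 d still lay under Control 21 d.

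The peptide transporter genes that rose were low in Control leaves. NPF8.5-like Sobic.001G276400 was at 0.523, 0.368, 2.59, 8.36 and 17.3 TPM under FeLim and at 0.317, 0.282, 0.621, 0.450 and 0.583 TPM in Control (1.54 ± 0.47, limma adjusted p = 0.0461). It was at most 1.84 TPM in the leaf columns of the other solutions and at most 0.0113 TPM in the root columns. Its mean over the leaf columns was 1.64 TPM with the FeLim columns and 0.646 TPM without them, so it reached the filter of 1 TPM only through FeLim and its call does not count as independent of that filter. PTR2-like Sobic.001G443900 was at 2.94, 3.01, 7.92, 10.8 and 12.4 TPM under FeLim and at 2.38, 1.88, 2.45, 1.64 and 3.35 TPM in Control (1.17 ± 0.26, limma adjusted p = 0.0269). The 3 late FeLim columns lay above all Control columns. NRT1:2-like Sobic.005G107500, whose Arabidopsis counterpart carries nitrate and abscisic acid, was at 3.80, 2.05, 7.67, 6.52 and 3.03 TPM under FeLim and at 2.06, 0.878, 3.82, 1.87 and 1.37 TPM in Control (0.87 ± 0.20, limma adjusted p = 0.0269). It was higher at all 5 times, but its FeLim and Control ranges overlapped.

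Of the genes that fell, NPF6.2-like Sobic.003G185100 was at 2.09, 13.9, 2.48, 3.85 and 9.10 TPM under FeLim and at 7.12, 13.2, 6.96, 20.9 and 28.1 TPM in Control (fell by 1.24 ± 0.36, limma adjusted p = 0.0404). It was lower at 4 of 5 times, with 4 d as the exception. PTR1-like Sobic.003G076200 stayed between 5.48 and 6.34 TPM under FeLim, while Control was at 10.4, 8.32, 5.22, 39 and 18.0 TPM (fell by 1.00 ± 0.31, limma adjusted p = 0.0467). The FeLim columns hardly varied, and the size of the difference came mainly from the high Control columns of 14 and 21 d.

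**Figure D2:**
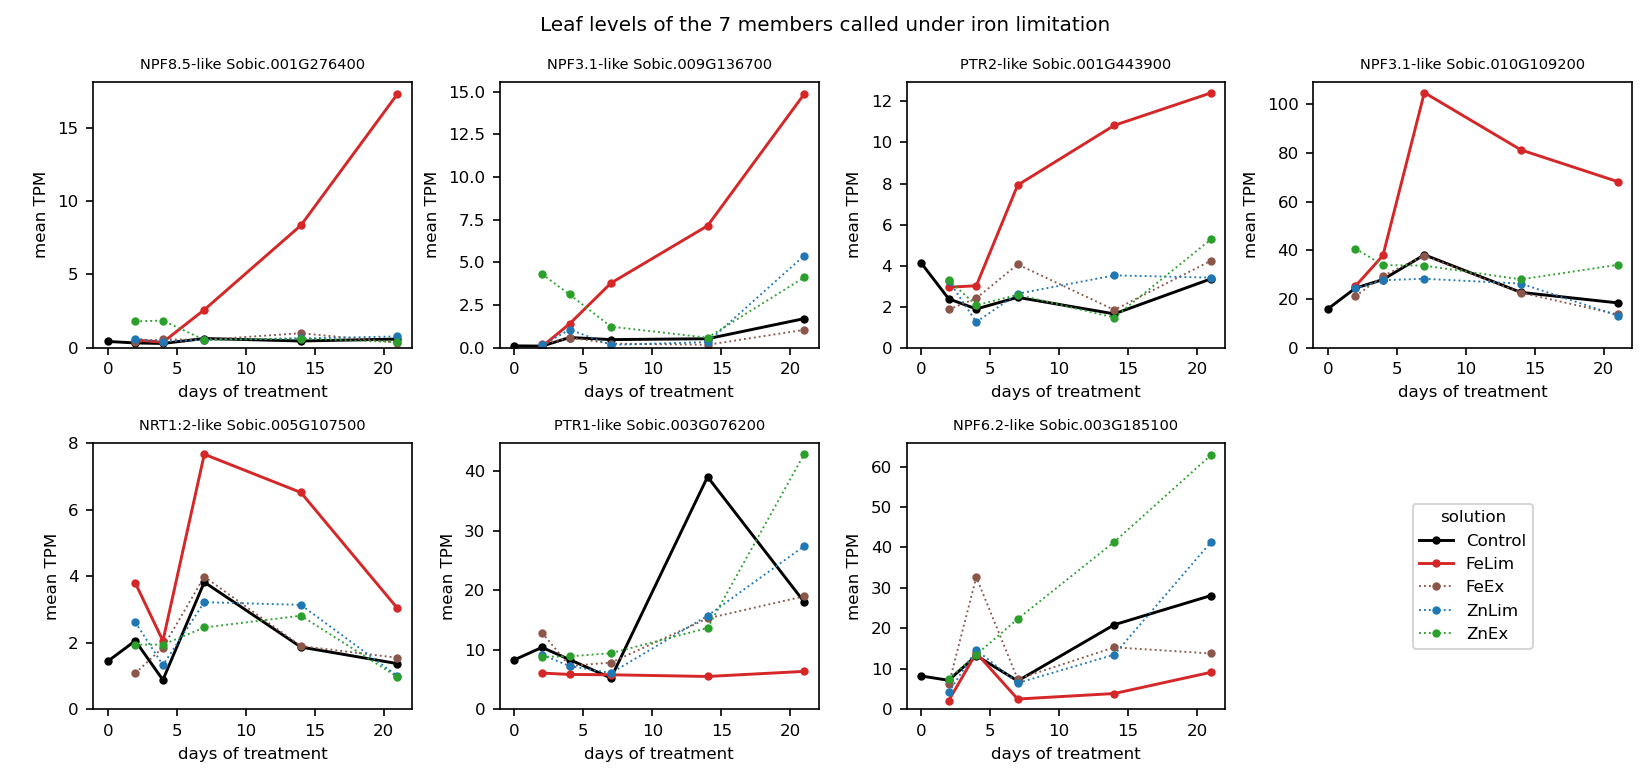
Leaf level in mean TPM (vertical, linear from 0) against days of treatment for the 7 members called under iron limitation, with Control in black, FeLim in red and the other solutions dotted. The FeLim line of NPF3.1-like Sobic.010G109200 reaches 105 TPM at 7 d, and that of NPF8.5-like Sobic.001G276400 climbs to 17.3 TPM at 21 d.

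The calls rest on the late times, on the scaling and on the columns fitted together. Without the 7, 14 or 21 d columns no member was called (limma), and the differences of the 7 genes kept their direction. Hardly any gene outside the family was called then either, with 0.0117% of all genes without 7 d and 0% without 14 or 21 d. With only the FeLim and Control columns fitted, no member was called, and of all genes 3 were called as higher and 6 as lower. Without 2 d, where 12.2% of all genes were called, the lower calls of Sobic.003G185100 and Sobic.003G076200 were lost (limma adjusted p = 0.0691 and 0.0586) and NRT1.5-like Sobic.004G276200 was called as lower (limma adjusted p = 0.0388). Without 4 d PTR1-like Sobic.003G392700 was called as lower as well (limma adjusted p = 0.0475), among 14.7% of all genes. After rescaling the columns to a median log2 ratio of 0, 2 members rose and 6 fell, against 3.53% and 4.08% of all genes. Sobic.010G109200, Sobic.001G443900, Sobic.003G185100 and Sobic.003G076200 were called both ways. Sobic.001G276400, Sobic.009G136700 and Sobic.005G107500 were not called after rescaling (limma adjusted p = 0.0791, 0.0566 and 0.0604). The members called as lower only after rescaling were PTR1-like Sobic.003G392700, NPF6.1-like Sobic.003G107100, NPF8.5-like Sobic.006G201100 and NPF5.8-like Sobic.010G099700. Leaf markers moved at the same times, with 8 of 35 tested lower and 0 higher under FeLim. Their sum was 185913, 119190 and 94172 TPM in FeLim at 7, 14 and 21 d against 322757, 239204 and 174986 TPM in Control, and their part in the members' differences was not tested.

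**Figure D3:**
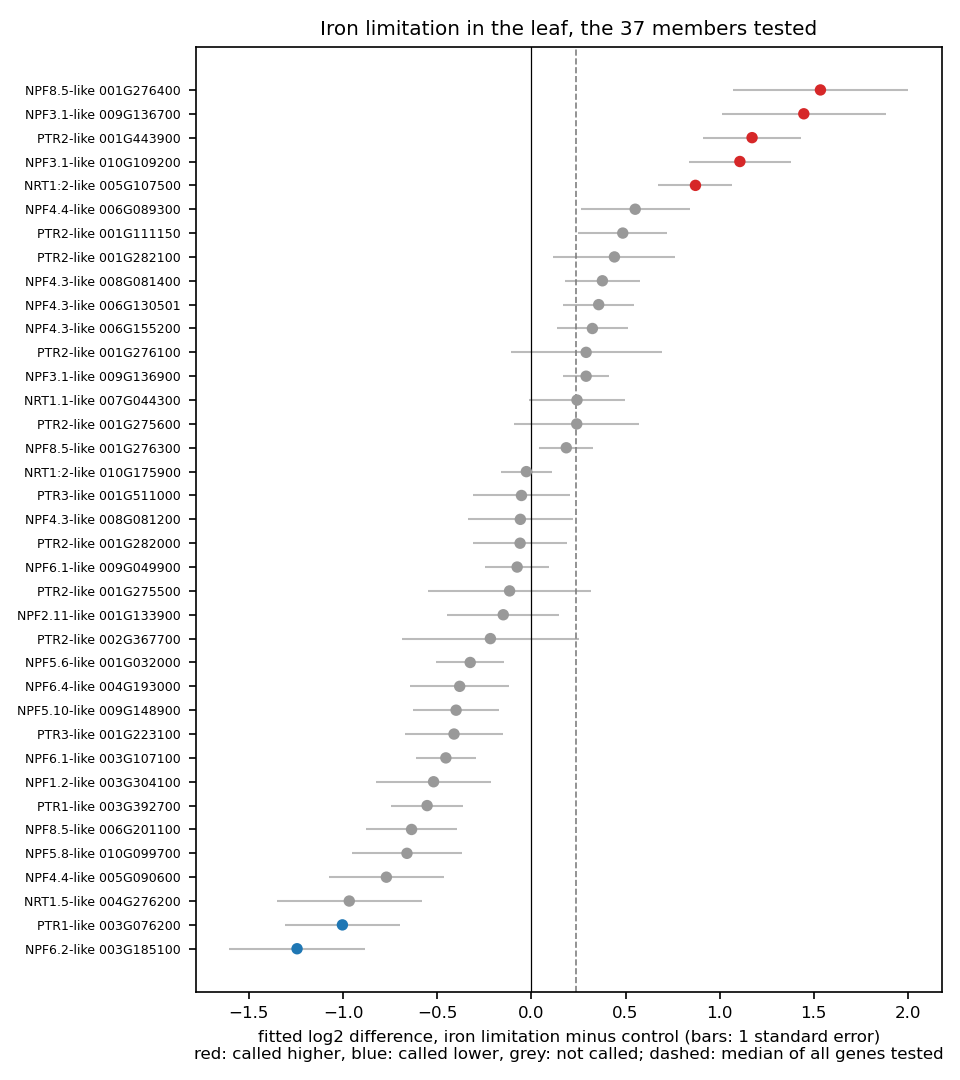
Fitted log2 difference between iron limitation and Control in the leaf, on the log2(TPM + 1) scale, for each of the 37 members tested, with bars of 1 standard error; red and blue mark the 5 higher and 2 lower calls, and the dashed line the median of all genes at 0.24. NPF8.5-like Sobic.001G276400 is at the top with 1.54 and NPF6.2-like Sobic.003G185100 at the bottom with -1.24.

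The late effect of iron limitation (7, 14 and 21 d) was set against the early one (2 and 4 d). For 2 members it was higher and for none lower, against 2.98% and 0.544% of all genes (limma). The effect on NPF8.5-like Sobic.001G276400 went from 0.15 early to 2.46 late, a change of 2.31 ± 0.57 (limma adjusted p = 0.0375). As said above, this gene reached the filter only through its FeLim columns, so this call too is not independent of the filter. That on NPF3.1-like Sobic.010G109200 went from 0.23 to 1.69, a change of 1.45 ± 0.37 (limma adjusted p = 0.0399). NPF3.1-like Sobic.009G136700 missed the threshold, with 0.28 early and 2.23 late (limma adjusted p = 0.0524), as did PTR2-like Sobic.001G443900, with 0.35 and 1.72 (limma adjusted p = 0.0818). Neither of the 2 called genes was called after rescaling the columns, or without 2, 4 or 14 d. Without 21 d, PTR2-like Sobic.001G111150 and Sobic.009G136700 were called as well (1.30 ± 0.37 and 1.79 ± 0.49, limma adjusted p = 0.0459 and 0.0428), in a fit that called 11.2% of all genes.

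Seen time by time, members differed at least 2-fold from Control under FeLim (with 5 TPM in the higher column) in both directions, at first mainly downwards. At 2 d, 0 of 28 were higher and 5 lower, where 5.51% of all genes passed in either direction, and at 4 d 0 of 27 were higher and 1 lower (4.15%). At 7 d, 7 of 28 were higher and 2 lower (38.1%), and at 14 d 8 of 32 were higher and 5 lower (34.8%). By 21 d, 4 of 30 were higher and 10 lower (20.7%). Among all genes, 329 were higher and 305 lower at 2 d, and 234 and 239 at 4 d. Later they were 4399 and 470 at 7 d, 3592 and 1144 at 14 d, and 1649 and 1150 at 21 d. These single-time counts have no replicate check.

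Other genes of nitrogen transport and use were read from the same limma fit, in which 6.79% of all genes rose and 1.87% fell. That fit called 0.0117% of all genes without 7 d and 0% without 14 or 21 d. None of the calls below thus held without 14 or 21 d. Of 33 amino acid permease genes tested, 3 fell and none rose in FeLim leaves, among them AAP2-like Sobic.009G142800 (fell by 1.22 ± 0.23, limma adjusted p = 0.0228). Of 14 ammonium assimilation genes, 2 rose, both related to asparagine synthetases, the enzymes that make asparagine for nitrogen transport. ASN1-like Sobic.001G406800 rose by 6.27 ± 1.00 (log2, limma adjusted p = 0.0158). Of 5 oligopeptide transporter (OPT) genes, a peptide and metal chelate family unrelated to PTR, 2 rose, OPT3-like Sobic.001G087700 by 2.94 ± 0.88 and OPT7-like Sobic.010G015500 by 1.18 ± 0.36 (limma adjusted p = 0.0449 and 0.0466). High-affinity nitrate transport had 1 of 3 genes lower, NRT2.5-like Sobic.003G188200 (fell by 2.14 ± 0.60, limma adjusted p = 0.0387). S-type anion channels had 1 of 3 lower, nitrate and nitrite reduction 1 of 5 lower, and nitrate signalling factors 1 of 7 lower. The gene lower in the reduction list was Sobic.009G189400, whose closest Arabidopsis gene SIR is a sulfite reductase. None of the 5 ammonium transport and 8 chloride channel genes was called.

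Zinc excess gave no call among the members in the leaf. None of 37 members passed, against 0.0293% of all genes, while 8 had an unadjusted p under 0.05, as had 12.1% of all genes (limma). NPF6.2-like Sobic.003G185100 was at 7.51, 13.5, 22.3, 41.4 and 62.8 TPM under ZnEx, with the Control values given above, and was higher at 5 of 5 times (0.75 ± 0.36, limma adjusted p = 0.403). Under FeLim the same gene had fallen. NRT1.1-like Sobic.007G044300 was at 35.6, 23.1, 15.8, 20.7 and 53.2 TPM under ZnEx and at 12.7, 21.2, 10.0, 14.6 and 33.7 TPM in Control, also higher at 5 of 5 times (0.65 ± 0.25, limma adjusted p = 0.403). NPF1.2-like Sobic.003G304100, whose counterpart NRT1.11 passes nitrate from xylem to phloem, was at 23.3, 20.2, 5.82, 7.55 and 20.5 TPM against 10.1, 10.2, 2.75, 12.0 and 7.37 TPM. It was lower only at 14 d (0.73 ± 0.31, limma adjusted p = 0.403).

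Some leaf members peaked in the zinc columns of 21 d. PTR2-like Sobic.001G275500 was at 73.2 TPM in ZnEx and 48.9 TPM in ZnLim against 23.8 TPM in Control. PTR3-like Sobic.001G511000 was at 73.3 and 46.4 TPM against 26 TPM. PTR2-like Sobic.001G282100, a root gene otherwise, reached 17 TPM in ZnEx against 2.60 TPM. In the opposite direction, NPF4.3-like Sobic.008G081200 was at 7.40 TPM in ZnEx and 6.90 TPM in ZnLim against 36.2 TPM in Control. These genes were picked after their values were seen, and single columns carry no test.

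At 21 d, 7 of 30 members were at least 2-fold higher and 2 lower in ZnEx leaves, where 18.4% of all genes passed, and 5 of 30 were higher and 2 lower in ZnLim leaves (16.7%). At 2 d in ZnEx, 3 of 28 were higher and 1 lower (16.5%), and at 7 d 7 of 26 were higher and 0 lower (11.8%). The balance was the other way at 4 d, with 1 of 27 higher and 3 lower (7.74%), and at 14 d, with 1 of 27 higher and 4 lower (6.35%). All genes leaned the same way in ZnEx at 2 d (1719 higher, 335 lower), 7 d (987, 383), 14 d (133, 621) and 21 d (2163, 407). At 4 d they were nearly even (459, 449), and in ZnLim at 21 d 2011 were higher and 314 lower. The leaf markers summed to 83877 TPM in ZnEx and 92661 TPM in ZnLim at 21 d, against 174986 TPM in Control. At 2 d they summed to 165506 TPM in ZnEx against 294599 TPM in Control, and at 14 d to 268226 against 239204 TPM. Their part in these values was not tested.

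**Figure D4:**
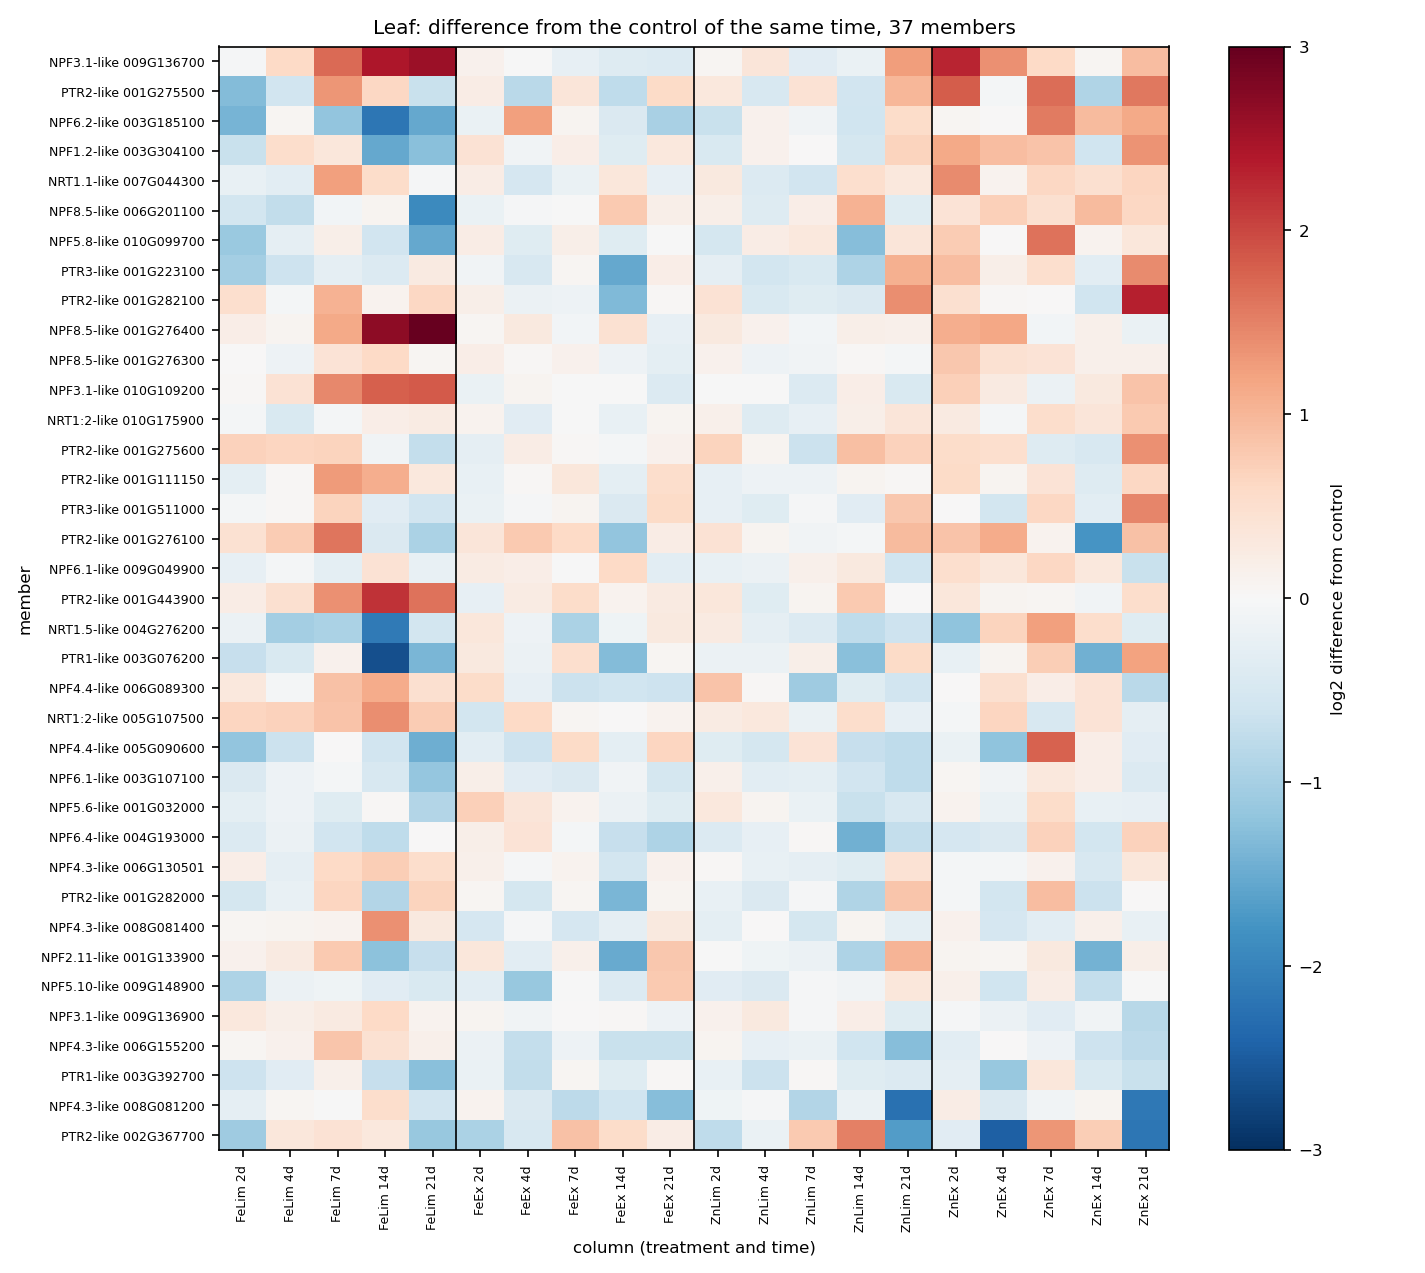
Log2 difference from the Control column of the same time, on the log2(TPM + 1) scale, for the 37 members tested in leaf (rows, sorted by their fitted ZnEx difference) in each treatment and time (columns); red is higher and blue lower than Control, and the colour scale ends at 3. NPF8.5-like Sobic.001G276400 is darkest red in FeLim at 21 d, and NPF4.3-like Sobic.008G081200 dark blue in both zinc treatments at 21 d.

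Zinc limitation and iron excess gave no call in the leaf either (limma), with 0% of all genes called in each. For ZnLim, 4 of 37 members and 1.12% of all genes had an unadjusted p under 0.05. NPF4.3-like Sobic.008G081200 was lower at 5 of 5 times, at 11.8, 22.1, 19.8, 21.5 and 6.90 TPM against 12.9, 22.5, 37, 24.8 and 36.2 TPM (-0.69 ± 0.28, limma adjusted p = 1.0). NPF6.4-like Sobic.004G193000 was lower at 4 of 5 times, at 35.9, 45.3, 47.0, 28.3 and 37.4 TPM against 48.0, 53.4, 45.7, 79.0 and 61.8 TPM (-0.55 ± 0.26). NPF4.4-like Sobic.005G090600 differed by -0.39 ± 0.30. For FeEx, 2 of 37 members and 3.05% of all genes had an unadjusted p under 0.05. Sobic.008G081200 again had the largest difference, at 14.0, 16.4, 21.0, 15.9 and 14.4 TPM (-0.60 ± 0.28, limma adjusted p = 0.999). NPF4.4-like Sobic.006G089300 differed by -0.31 ± 0.29 and NPF6.1-like Sobic.003G107100 by -0.24 ± 0.16. The test of the late against the early effect called no leaf member under ZnEx, ZnLim or FeEx (limma, 0% of all genes in each). An unadjusted p under 0.05 was found for 3, 1 and 1 members, and for 2.38%, 0.72% and 1.15% of all genes.

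In roots no member was called under any treatment (limma). Zinc excess called 1.39% of all genes and 0 of 34 members. An unadjusted p under 0.05 was found for 8 members and for 14.0% of all genes. The smallest adjusted p was that of NPF3.1-like Sobic.009G136700, at 1.30, 3.43, 2.99, 1.42, 0.871 and 7.82 TPM from 1 h to 21 d against 0.930, 0.410, 0.273, 0.888, 1.86 and 0.990 TPM in Control (0.91 ± 0.26, limma adjusted p = 0.0788). It was chosen after its values were seen, and it was called without the 14 d columns, among 0.381% of all genes (1.21 ± 0.24, limma adjusted p = 0.0283). NAXT1-like Sobic.009G099000 was called without the 21 d columns, among 1.04% of all genes (0.90 ± 0.21, limma adjusted p = 0.0389). NPF4.3-like Sobic.006G130501 ranged from 4.24 to 27.9 TPM in ZnEx and from 7.90 to 56.7 TPM in Control after 0 h (-1.01 ± 0.44, limma adjusted p = 0.288), and PTR3-like Sobic.001G223100 from 8.72 to 53.8 TPM against 20.7 to 101 TPM (-1.0 ± 0.42, limma adjusted p = 0.274). Both were lower at 5 of 6 times, and both had their highest Control values at 2 and 4 d, the columns with the high leaf marker sums. Of 26 leaf markers tested in root, 3 were lower in ZnEx, and their part in these values was not tested. NPF4.4-like Sobic.006G089300 was higher at 5 of 6 times (0.74 ± 0.39, limma adjusted p = 0.396). One amino acid permease gene, CAT2-like Sobic.001G151000, rose in ZnEx roots (0.92 ± 0.20, limma adjusted p = 0.0188), and no other gene of the nitrogen lists was called in any root treatment.

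Zinc limitation called 0.00977% of all root genes and 0 of 34 members, with 5 members and 6.34% of all genes at an unadjusted p under 0.05. NAXT1-like Sobic.009G099000, related to a nitrate excretion transporter of the root, was at 13.4, 5.91, 5.61, 4.99, 6.78 and 11.9 TPM in ZnLim and at 6.3, 2.44, 2.51, 3.67, 4.3 and 6.1 TPM in Control. It was higher at 6 of 6 times (0.78 ± 0.23, limma adjusted p = 0.708). NRT1:2-like Sobic.005G107500 was also higher at 6 of 6 times, with 10.5 to 31.2 TPM against 7.08 to 22.4 TPM (0.51 ± 0.21, limma adjusted p = 0.76). NPF4.3-like Sobic.006G130501 was lower at 5 of 6 times (-0.94 ± 0.44). A single column stood out for NPF4.4-like Sobic.006G089300, at 138 TPM in ZnLim and 52.7 TPM in ZnEx at 21 d against 32.1 TPM in Control, and the other 28 root columns lay between 3.1 and 24.0 TPM.

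Iron limitation and iron excess called 0% of all root genes each (limma). Under FeLim 0 of 34 members and 0.488% of all genes had an unadjusted p under 0.05, and under FeEx 1 member and 7.5% of all genes. In FeLim roots NAXT1-like Sobic.009G099000 differed by 0.32 ± 0.23, PTR3-like Sobic.001G511000 by 0.30 ± 0.29 and NPF3.1-like Sobic.009G136800 by -0.01 ± 0.30. In FeEx roots PTR1-like Sobic.003G392700 differed by 0.34 ± 0.26 and PTR3-like Sobic.001G511000 by -0.34 ± 0.29. Of the 7 genes called in FeLim leaves, 5 were tested in roots and none of these was called in FeLim roots, while Sobic.001G276400 and Sobic.003G185100 were below the filter there. NPF3.1-like Sobic.010G109200 was at 9.08, 33.1, 17.5, 14.7, 19.7 and 10.0 TPM in FeLim roots and at 8.12, 15.8, 25.0, 12.6, 10.4 and 15.7 TPM in Control roots.

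A test of that difference, the effect in root minus the effect in leaf over the shared times, called 0 of 28 members for FeLim, where 0.0322% of all genes were called (limma). An unadjusted p under 0.05 was found for 6 members and for 16% of all genes. Among the 6 was PTR2-like Sobic.001G443900, with an effect in root minus leaf of -1.63 ± 0.44 (limma adjusted p = 0.11). Without 2 d this gene was called (-2.19 ± 0.36, limma adjusted p = 0.0038), in a fit that called 1.3% of all genes. For ZnEx it called 0 of 28 members and 0.232% of all genes, with 4 members and 14.2% of all genes at an unadjusted p under 0.05. For FeEx and ZnLim it called 0% of all genes and no member, with 1 and 2 members, and 7.22% and 2.34% of all genes, at an unadjusted p under 0.05. In the fit over all shared times, the leaf and root effects on single members were thus not shown to differ.

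The test of late against early root effects called no member (limma). For FeEx 0.395% of all genes were called, and 7 of 34 members and 21.4% of all genes had an unadjusted p under 0.05. The smallest was that of NAXT1-like Sobic.009G099000 (from 0.61 early to -0.77 late, limma adjusted p = 0.0645). Without 1 h it was called together with NPF5.6-like Sobic.001G032000 and NPF3.1-like Sobic.009G136800 (late minus early -1.55, -1.80 and -2.18, limma adjusted p = 0.0438, 0.0446 and 0.0311), in a fit that called 6.45% of all genes. For ZnEx 0% of all genes were called, and 13 members and 19.2% of all genes had an unadjusted p under 0.05. For FeLim and ZnLim 0% of all genes were called each, with 2 and 1 such members and 9.17% and 9.83% of all genes.

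Root levels at 1 h stood apart from later ones for some members, in Control as in the treatments. For 4 of the 34 members all 5 columns of 1 h lay above all 25 later columns, where 5.71% of all genes did so, and for 1 member all lay below (1.78%). NPF2.11-like Sobic.001G133900 was at 270 to 370 TPM at 1 h, in Control as in the 4 treatments, at most 202 TPM from 2 d on, and at 193 TPM at 0 h. NRT1.1-like Sobic.007G044300 was at 88.0 to 126 TPM at 1 h, at most 87.1 TPM later and at 76.2 TPM at 0 h. PTR1-like Sobic.003G076200 was at 7.26 to 8.82 TPM at 1 h and at most 5.89 TPM later, and NPF5.6-like Sobic.001G032000 at 6.2 to 8.52 TPM and at most 3.95 TPM. NRT1:2-like Sobic.010G175900 went the other way, with 6.47 to 9.75 TPM at 1 h and at least 14.2 TPM later. PTR2-like Sobic.001G282000 just missed that rule, at 28.8 to 35.7 TPM at 1 h and 30.6 to 150 TPM later. Such 1 h shifts were found in many genes outside the family, and no test sets the members apart from them.

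The 3 root columns with the highest leaf marker sums stood apart for some members. PTR3-like Sobic.001G223100 was at 87.8, 101 and 122 TPM in Control 2 d, Control 4 d and FeLim 2 d, and at most 61.5 TPM in the other 27 columns after 0 h. NPF4.3-like Sobic.006G130501 was at 46.6, 56.7 and 57.8 TPM there and at most 41.8 TPM elsewhere. These 2 of 34 members were above all other columns (5.68% of all genes were), and 3 were below (9.45%), among them NRT1.5-like Sobic.004G276200 at 0.110 to 0.220 TPM. The part of leaf marker RNA in these values was not tested.

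Root treatment columns of 2 d are read against Control 2 d, 1 of these 3. At 2 d, 10 of 21 members were at least 2-fold higher and 2 lower in FeEx roots (26.9% of all genes passed in either direction), 11 of 21 higher and 2 lower in ZnLim (20.6%), and 12 of 21 higher and 4 lower in ZnEx (37.1%). NPF2.11-like Sobic.001G133900, for example, was at 150, 85.9 and 134 TPM in these 3 treatments against 52.4 TPM in Control 2 d, and at 45.7 TPM in FeLim 2 d. FeLim 2 d, also among the 3 columns highest in leaf markers, had 6 of 19 members higher and 1 lower (11.6%). Among all genes, 2996 were higher and 1168 lower in FeEx, 2125 and 979 in ZnLim, 3654 and 2128 in ZnEx, and 721 and 953 in FeLim. The Control column is shared by all 4 comparisons, so they are not separate evidence.

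**Figure D5:**
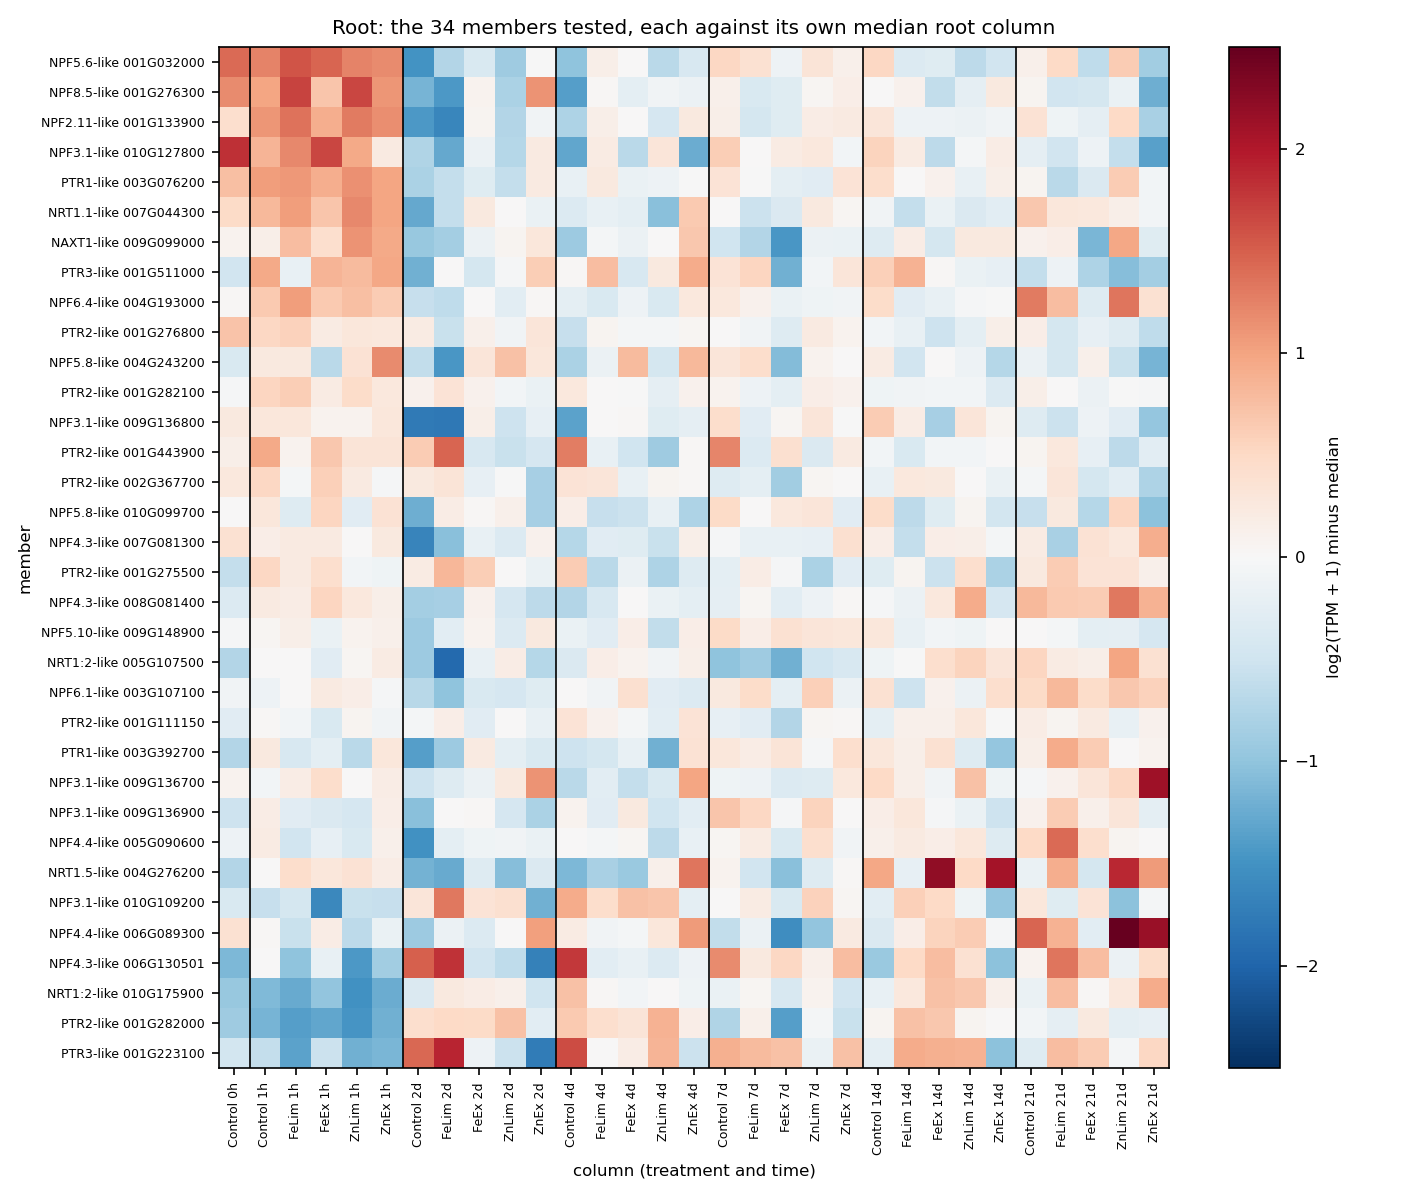
Log2(TPM + 1) of the 34 members tested in root (rows, sorted by their 1 h level relative to later columns) minus each member's own median root column, for the 31 root columns in order of time; black lines separate the times. The 1 h block is red for the upper rows, such as NPF2.11-like Sobic.001G133900 with 270 to 370 TPM, and Control 2 d, FeLim 2 d and Control 4 d are dark red for PTR3-like Sobic.001G223100.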

How the data were processed

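The deposited table held mean TPM, averaged by the authors over the libraries of each tissue, treatment and time. The submitters' processing notes name DRAGEN as the tool. Which version, genome build and annotation they used is not given here. For 8 columns the deposited values were recorded as a signal, because repeated rows lift their sum furthest above 1000000; they are the same mean TPM. The table had 34924 rows, and 795 repeats of 429 genes that were listed in several rows were dropped, after which each column summed to 1000000. No sequence of the members was used here.

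TPM was transformed to log2(TPM + 1), which understates fold changes of low genes. Genes with a mean of at least 1 TPM in the tissue entered limma 3.58.1 (trend, R 4.3.3) with time and treatment as terms, or treatment split into late and early times, with Benjamini-Hochberg adjustment over all genes tested. The comparison of root and leaf in Control took genes at that mean over the Control columns of either tissue. The test of root minus leaf effects took genes at that mean in both tissues. TPM keeps no depth, so no counting interval is given. Members and gene lists were chosen with earlier results of these data known. Genes named were the 6 highest per tissue, every called member, the 5 largest tissue differences each way, and up to 3 members with 1 sign at all but 1 time where nothing was called; others are stated as chosen from their values. Fits were also run on simulated data with independent noise in each column, which leaves out any repeated sampling of plants. No statement here is drawn from those runs. Alternatives were the pseudocount, the filter, rescaling, the samples entering the fit, and leaving out each time.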

Additional observations from a re-analysis of the deposited data

Results flagged for a closer look

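In 4 of 39 sets of 4 to 7 values, 1 value lay far from the others, and chance flags about 1 set in 20. The leaf level of PTR2-like Sobic.002G367700 was 188 TPM in the untreated Control at 0 h, while the later Control leaves were at 15.2 to 37.4 TPM. The FeLim difference of NRT1:2-like Sobic.005G107500 in leaf was 1.39 (log2) at 14 d and 0.65 to 0.85 at the other times. The ZnEx difference of NPF1.2-like Sobic.003G304100 in leaf was -0.61 at 14 d and 0.86 to 1.36 at the other times. The FeLim difference of NPF3.1-like Sobic.009G136800 in root was 1.33 at 4 d, where the Control column is 1 of the 3 with the highest leaf marker sums, and -0.72 to -0.01 at the other times.

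The FeLim effect in leaf differed between late and early times, by limma, for NPF8.5-like Sobic.001G276400 (late minus early 2.31) and NPF3.1-like Sobic.010G109200 (1.45). The first of these genes reached the filter of 1 TPM only through its FeLim columns, and neither was called after the columns were rescaled (limma adjusted p = 0.174 and 0.197).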

How the results depend on the processing

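Times with no replicate columns and unknown depth limit every test. No paired analysis was possible because the columns carry no replicate numbers. Of the comparison counts, 222 values under alternatives stayed within 1.5 times of the reported count and 20 did not. The 7 calls in FeLim leaves became 0 without a filter, 3 with a mean of at least 5 TPM, 0 with only the FeLim and Control columns fitted, and 0 to 8 when 1 time was left out. The 2 late minus early calls became 1 with a pseudocount of 0.1, 0 without a filter, 1 with at least 5 TPM, 0 after rescaling, 0 with the boundary between 7 and 14 d, and 0 to 4 with 1 time left out. Leaving out 1 time gave 0 or 1 calls for the FeLim effect in root minus leaf (1 without 2 d) and for ZnEx in root (1 without 14 d or 21 d), and 0 to 3 for FeEx late minus early in root (3 without 1 h). Of the values of named members, 394 kept direction and side of the threshold, 55 kept the direction only, and 5 reversed. All 5 were the FeLim difference of NPF3.1-like Sobic.009G136800 in root (-0.01 as reported), at 0.0069 with a pseudocount of 0.1, 0.0014 after rescaling, and -0.28 (without 4 d) to 0.13 (without 7 d) when 1 time was left out, with 0.07 and 0.03 without 14 or 21 d. The causes were not tested. Taking tissue differences relative to the median of all genes was chosen after seeing the data.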
